A study of Mus musculus with 6 samples.

Results

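The Z-disc is the protein sheet at which the thin actin filaments of neighbouring sarcomeres are anchored, and 10 mouse genes of this structure and of the sarcomeric thin filament are described here in soleus muscle. They are the α-actinins Actn2 and Actn3, the calsarcins Myoz1, Myoz2 and Myoz3, the scaffold genes Ldb3, Myot and Tcap, and the sarcomeric actins Acta1 and Actc1. The genes were taken by symbol, with the transcript cluster of highest mean signal for each symbol, and all 10 were found, each with 1 cluster, among 19938 genes measured. RNA of the soleus, a postural calf muscle, was measured on Affymetrix Mouse Gene 1.0 ST arrays in 3 groups of 2: hindlimb suspension with electroacupuncture, hindlimb suspension alone, and control. Suspension lifts the hind limbs so that their muscles bear no weight, and electroacupuncture passes current through acupuncture needles. All arrays were labelled as soleus of male C57BL/6 mice of 8 weeks, and the duration of suspension and the points of stimulation were not given in the sources used here. Whether both arrays of a group stand for different animals is not stated in the labels, so p-values measure the spread between arrays, which may be technical.

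At the Z-disc, α-actinin crosslinks actin filaments of opposite polarity, and the calsarcins, the PDZ and LIM protein of Ldb3 and myotilin (Myot) bind to it. Calsarcins also bind the phosphatase calcineurin and hold back its signalling, while telethonin (Tcap) joins the ends of paired titin molecules. Several of these proteins come in versions for fast and slow fibres: Actn3 and Myoz1 are made mainly in fast fibres, Myoz2 in slow fibres and heart, and Actn2 in all fibres. Acta1 is the main actin of adult skeletal muscle, whereas Actc1 is the main actin of heart and is also made in embryonic and regenerating skeletal muscle.

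Promoter sequence from RefSeq (GRCm38.p6) was matched for 5 of the 10 genes, Acta1, Actc1, Actn2, Ldb3 and Myoz2. It is shown for 4 of them, as the 250 bases before the annotated start, because 3 of them share an element of the actin promoters and the fourth carries one of many muscle genes. That element is the CArG box (CC, then 6 bases that are each A or T, then GG), which serum response factor binds. It was found, with both strands searched, in the windows of Acta1, Actc1 and Ldb3 (of 2 overlapping windows listed for Ldb3, the upstream one is shown), against 1.47% of 32851 windows of that length, and is in capitals. It begins 73 bases before the start in Acta1, 47 in Actc1 and 35 in Ldb3. In Myoz2 the capitals mark a match to the MEF2 element, found in 2.92% of windows, which begins 33 bases before the start.
Acta1, chr8:123894776-123895025, minus strand: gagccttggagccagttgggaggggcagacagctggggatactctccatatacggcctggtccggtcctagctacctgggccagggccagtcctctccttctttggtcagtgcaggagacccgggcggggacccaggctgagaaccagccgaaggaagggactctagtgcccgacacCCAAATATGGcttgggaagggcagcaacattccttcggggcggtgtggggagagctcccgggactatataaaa
Actc1, chr2:114052876-114053125, minus strand: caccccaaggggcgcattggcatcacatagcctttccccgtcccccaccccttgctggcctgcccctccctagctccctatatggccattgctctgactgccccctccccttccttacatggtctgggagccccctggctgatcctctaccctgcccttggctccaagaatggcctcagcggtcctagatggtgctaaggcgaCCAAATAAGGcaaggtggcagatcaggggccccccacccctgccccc
Ldb3, chr14:34588682-34588931, minus strand: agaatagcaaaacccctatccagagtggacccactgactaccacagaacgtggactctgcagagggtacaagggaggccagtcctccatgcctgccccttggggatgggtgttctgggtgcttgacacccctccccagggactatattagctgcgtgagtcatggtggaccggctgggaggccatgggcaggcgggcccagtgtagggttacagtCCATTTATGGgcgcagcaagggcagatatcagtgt
Myoz2, chr3:123034988-123035237, minus strand: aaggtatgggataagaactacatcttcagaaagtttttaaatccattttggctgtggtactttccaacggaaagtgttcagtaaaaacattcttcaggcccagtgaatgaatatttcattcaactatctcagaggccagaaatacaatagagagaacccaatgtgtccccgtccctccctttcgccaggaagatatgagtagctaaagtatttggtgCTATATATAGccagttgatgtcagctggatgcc
Other elements of muscle promoters were searched on both strands too. The MCAT element CATTCC was found in Acta1 and in 12.6% of windows. The E-box CANNTG was found in Acta1, Actn2 and Myoz2 and in 66.2% of windows, and in Myoz2 the nearer of its matches to the MEF2 element begins 22 bases before the start.

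Values are log2 signals that the authors normalized by RMA, so a difference of 1 is a doubling, and signals of different genes are not set against each other. All 10 genes lay above 3.50, the 95th percentile of the mean signals of 1027 olfactory receptor genes, which served as a measure of background. Array medians ran from 4.55 to 4.61, and each array's mean rank correlation to the remaining 5 from 0.982 in control array 1 to 0.988 in electroacupuncture array 2. The slow myosin heavy chain gene Myh7 had signals from 11.62 to 12.02 on the 6 arrays, and each of 9 slow-fibre markers lay above background. Control arrays differed from each other more than the other duplicates did: the median gap over all genes was 0.14 in the electroacupuncture group, 0.16 in suspension and 0.21 in control, and over the 10 genes it was 0.11, 0.12 and 0.30. Adipocyte markers (5 of 6 measured) averaged from 6.17 to 6.30 in the electroacupuncture group, from 5.51 to 5.78 in suspension, and 5.48 and 7.43 on control arrays 1 and 2, and their part in the results was not tested.

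**Figure D1:**
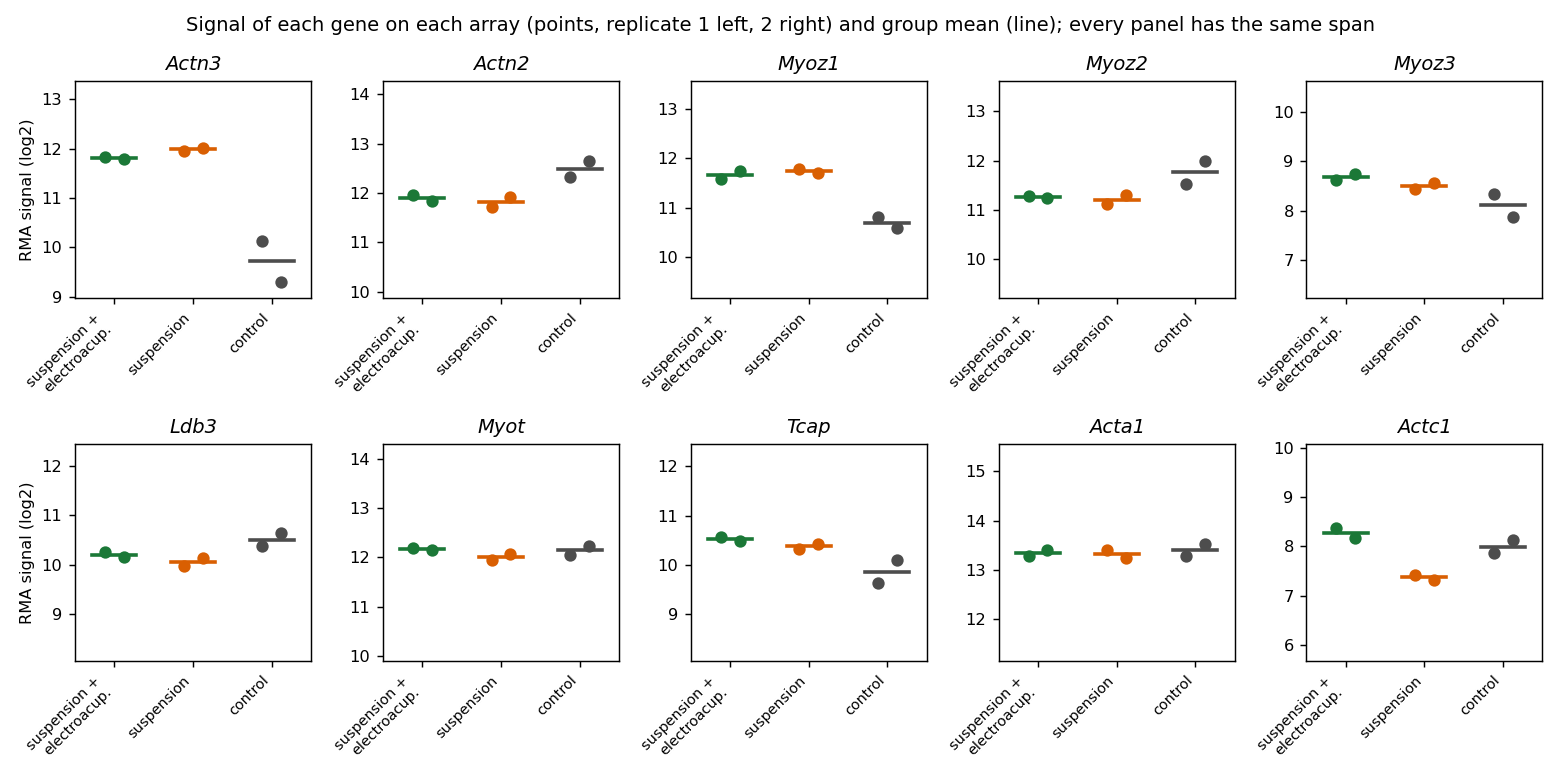
RMA signal (log2, vertical axis) of each of the 10 genes on each array (points, replicate 1 left and 2 right) with group means (lines), for suspension with electroacupuncture, suspension and control; every panel has the same span. Actn3 and Myoz1 are high on all 4 suspended arrays and low on both control arrays, and Actc1 is low on the 2 arrays of suspension alone.

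Suspension was compared with control to ask what unloading does to these genes. Actn3 and Myoz1 rose, and the other 8 genes did not pass adjusted p under 0.05. Over all genes 1.05% passed, 0.537% as higher and 0.512% as lower. The groups did not overlap for 8 of the 10 genes, against 39.8% of all genes. They were higher for 4, against 21.3% of all genes, and lower for 4, against 18.5%. The median size of the difference was 0.53 over the 10 genes and 0.16 over all genes, while the signed medians were -0.11 and 0.01. Differences are log2 values with their standard error from limma.

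Of the α-actinins, Actn3 rose and Actn2 did not pass the test. Actn3 had signals of 11.96 and 12.02 in suspended soleus, against 10.13 and 9.30 in control soleus. Every suspended array was above both control arrays, and the control arrays were 0.82 apart, a gap that 2.74% of all genes reached. The difference was 2.28 ± 0.23 (adjusted p = 0.00618), a 4.84-fold rise with a 95% interval from 1.75 to 2.80 log2. It was the third highest difference and 13th by p of the 19938 genes. Actn2, the α-actinin of all fibres, had signals of 11.72 and 11.92 in suspended soleus, against 12.32 and 12.65 in control soleus. Its groups did not overlap either, and the suspended arrays were the lower ones. The difference of -0.67 ± 0.16 did not pass (adjusted p = 0.0978).

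Of the calsarcins, Myoz1 rose and the other two did not pass. Myoz1, a fast-fibre calsarcin, had signals of 11.78 and 11.70 in suspended soleus, against 10.81 and 10.59 in control soleus. The groups stood apart by more than either gap between duplicates, with a difference of 1.04 ± 0.14 (adjusted p = 0.0163), a 2.06-fold rise. Myoz2, the calsarcin of slow fibres and heart, had signals of 11.13 and 11.30 in suspended soleus, against 11.54 and 11.99 in control soleus. The suspended arrays were the lower ones, with a difference of -0.55 ± 0.17 that did not pass (adjusted p = 0.192). Myoz3, a further calsarcin of skeletal muscle, had signals of 8.44 and 8.56 in suspended soleus, against 8.34 and 7.87 in control soleus. Its groups were separated by less than 1 gap between duplicates, and the difference was 0.39 ± 0.17 (adjusted p = 0.379).

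Neither called gene kept its call without suspension array 1, where Actn3 differed by 2.31 (adjusted p = 0.062) and Myoz1 by 1.00 (adjusted p = 0.133). Myoz1 also missed the threshold without suspension array 2 (adjusted p = 0.115) and without electroacupuncture array 1 (0.0519) or 2 (0.0509), arrays that enter this comparison only through the estimate of spread. Without control array 1, 4 of the 10 genes passed: Actn3 and Myoz1 as higher, and Actn2 (-0.83, adjusted p = 0.0343) and Myoz2 (-0.78, adjusted p = 0.0353) as lower. Without control array 2, 3 passed, the third being Tcap (0.74, adjusted p = 0.0343). Each such fit assumes that the array left alone in its group varies like the others. An exact permutation test of 2 arrays against 2 could not give a two-sided p below 0.333, so no such test was used.

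**Figure D2:**
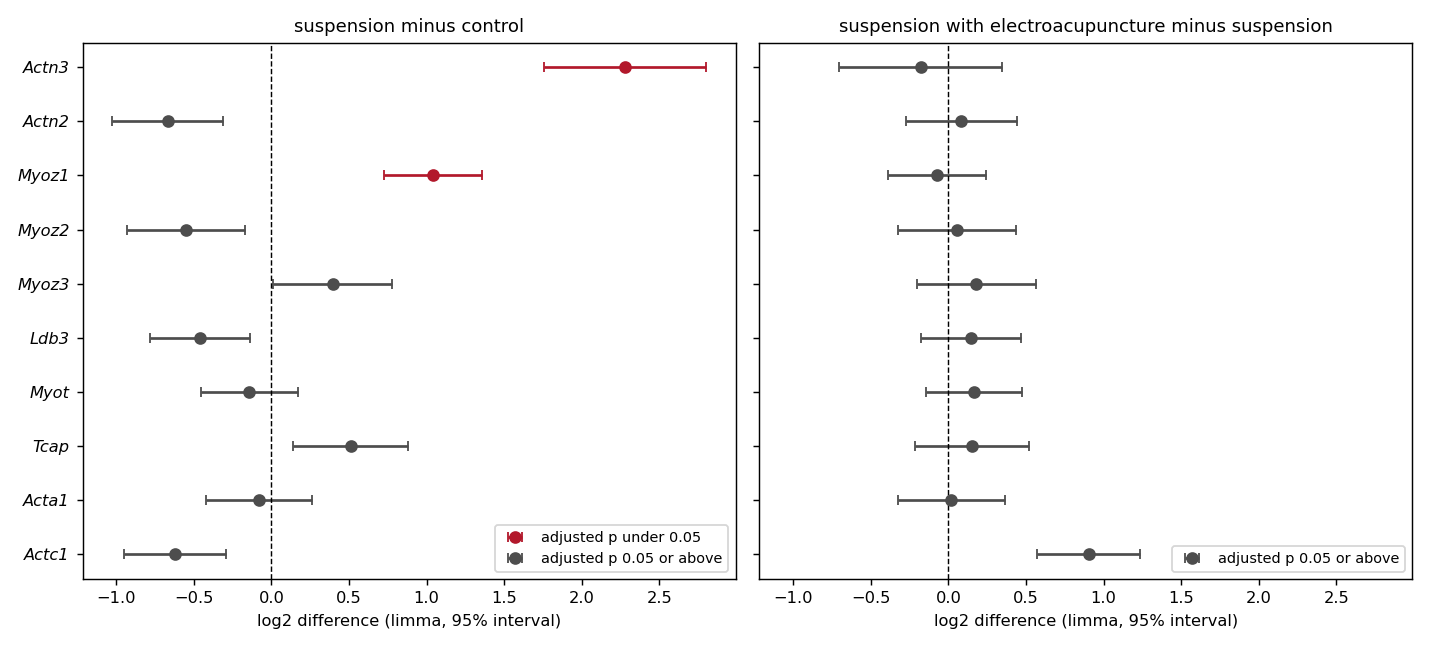
Log2 differences (horizontal axis) with 95% intervals from limma for the 10 genes, for suspension minus control (left) and suspension with electroacupuncture minus suspension (right). Red points passed adjusted p under 0.05, which were Actn3 and Myoz1 in the left panel; in the right panel only the interval of Actc1, from 0.57 to 1.23, lies off 0.

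None of the 3 scaffold genes passed. Tcap, whose product telethonin caps titin at the Z-disc, had signals of 10.33 and 10.42 in suspended soleus, against 9.64 and 10.09 in control soleus. The suspended arrays were the higher ones, with a difference of 0.51 ± 0.16 (adjusted p = 0.214). Ldb3, which encodes an α-actinin-binding scaffold, had signals of 9.97 and 10.13 in suspended soleus, against 10.38 and 10.64 in control soleus, lower on both suspended arrays (-0.46 ± 0.14, adjusted p = 0.199). Myot, which encodes myotilin, had signals of 11.94 and 12.06 in suspended soleus, against 12.05 and 12.24 in control soleus. These groups overlapped, and the 95% interval of the difference ran from -0.45 to 0.17.

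Neither sarcomeric actin passed. Acta1, the adult skeletal actin gene, had signals of 13.41 and 13.25 in suspended soleus, against 13.29 and 13.53 in control soleus, and the groups overlapped. Its difference was -0.08 ± 0.15, with a 95% interval from -0.42 to 0.26, and it turned to 0.04 without control array 2. These signals lay close to the top of the scale, where the highest signal on an array was between 13.72 and 13.99, and whether saturation touched the difference was not tested. Actc1, the cardiac actin gene, had signals of 7.42 and 7.32 in suspended soleus, against 7.86 and 8.12 in control soleus. Both suspended arrays were lower, with a difference of -0.62 ± 0.15 (adjusted p = 0.0966) that did not pass. The 2 actin coding sequences are closely similar, and whether probes of one gene took up transcripts of the other was not tested.

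The balance within each group of related genes was followed on single arrays as a log2 ratio set to 0 at the control mean. The ratio of Actn3 to Actn2 stood at 3.01 and 2.87 in suspended soleus, against 0.58 and -0.58 in control soleus. For Myoz1 over Myoz2 it was 1.71 and 1.47 in suspended soleus, against 0.34 and -0.34 in control soleus. Both ratios were higher on every suspended array than on every control array. Control array 1 lay on the side of the suspended arrays in both ratios. Actc1 over Acta1 was -0.57 and -0.51 in suspended soleus, against -0.01 and 0.01 in control soleus, so this ratio was lower on both suspended arrays.

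**Figure D3:**
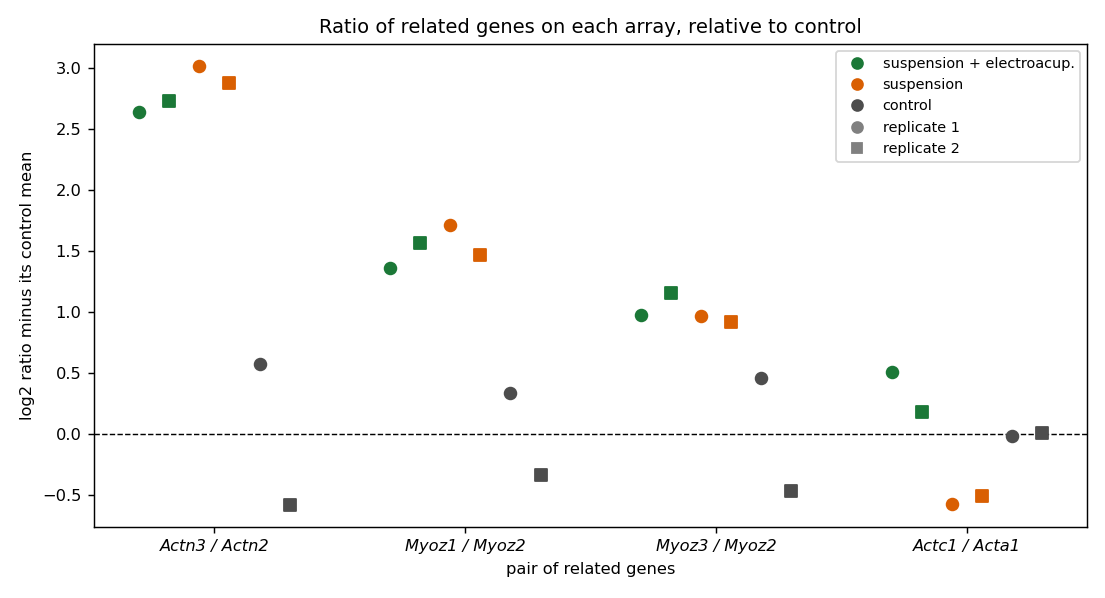
Log2 ratio of related genes on each array (vertical axis, minus the mean of the control arrays) for Actn3 over Actn2, Myoz1 over Myoz2, Myoz3 over Myoz2 and Actc1 over Acta1, with groups in colour and replicates by symbol. The suspended arrays, with and without electroacupuncture, lie between 1.36 and 3.01 for the first 2 ratios, whereas the arrays of suspension alone lie at -0.57 and -0.51 for Actc1 over Acta1.

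The profiles of the genes over the 6 arrays, each centred on its own mean, were compared by their root mean square difference. Of the 45 combinations of members, the closest was Actn2 with Myoz2, at 0.07 log2, followed by Myoz2 with Ldb3 at 0.09 and Myot with Acta1 at 0.11. Actn2, Myoz2 and Ldb3 all had their highest signal on control array 2, as did Myot and Acta1. Among 9680 candidate genes of at least median signal, the profile most like that of Actn3 was that of Myh4, the fastest myosin heavy chain gene, at 0.17 log2, against a median of 1.07. Next came Ddit4l, an inhibitor of mTOR signalling, at 0.29 and Sh3rf2 at 0.37. For Myoz1 they were Aqp4, the water channel of fast fibres, at 0.09, Nfatc2, a transcription factor activated by calcineurin, at 0.09, and the kinase gene Wnk2 at 0.10, against a median of 0.50. These likenesses rest on 6 arrays that include the same 2 control arrays, and they are descriptions with no test.

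**Figure D4:**
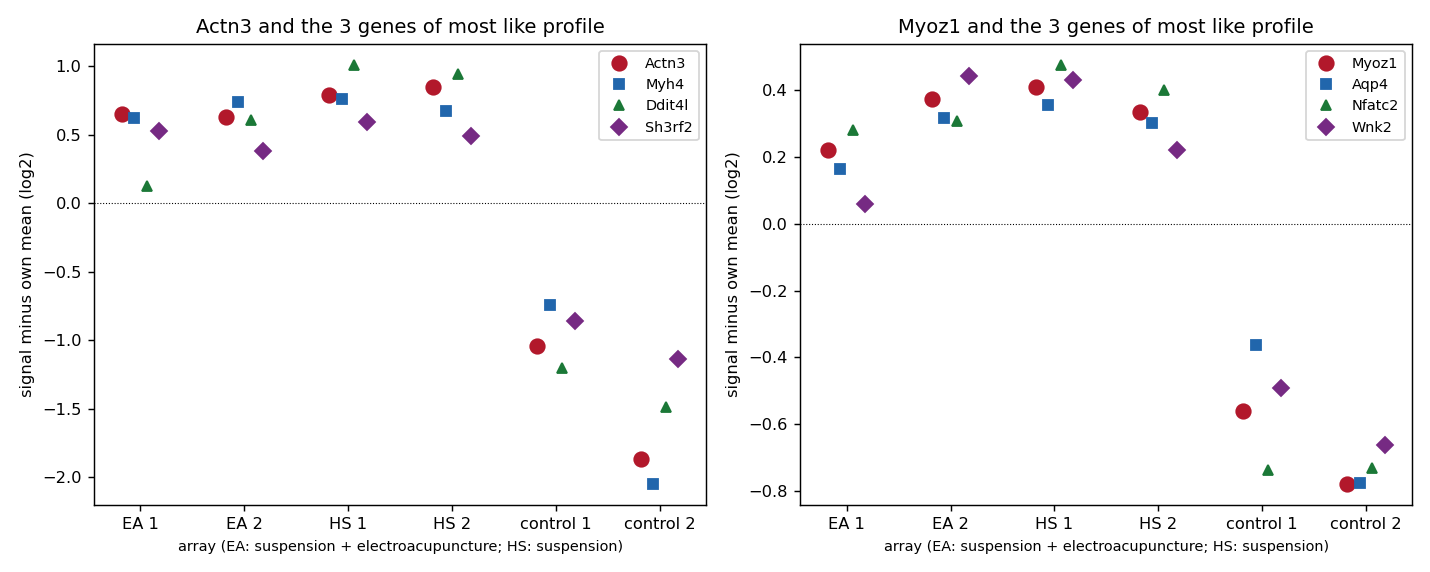
Signal of Actn3 (left) and Myoz1 (right) and of the 3 genes of most like profile, each minus its own mean (log2, vertical axis), on each array (horizontal axis; EA is suspension with electroacupuncture, HS suspension). All 8 genes are above their mean on the 4 suspended arrays and below it on both control arrays, and Myh4 follows Actn3 also in the gap between the control arrays.

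Some fast-fibre markers rose along with Actn3 and Myoz1. Of 11 fast-fibre markers, 3 rose (Myh4, Pvalb and Myh1) and 1 fell (Myh2), with a median difference of 0.35. Their mean signal was 11.90 and 11.93 in suspended soleus, against 11.62 and 11.53 in control soleus. Myh4 had signals of 12.27 and 12.18 in suspended soleus, against 10.76 and 9.46 in control soleus, so its control arrays were apart in the same direction as those of Actn3. Of 9 slow-fibre markers, 1 fell, the calsequestrin gene Casq2, and the list had a median of -0.55 and means of 10.60 and 10.66 in suspended soleus, against 11.08 and 11.39 in control soleus. In that list 1 marker was above 0. The slow myosin gene Myh7 had signals of 11.68 and 11.68 in suspended soleus, against 11.62 and 12.02 in control soleus. Its groups overlapped, and it did not pass (-0.14 ± 0.18, adjusted p = 0.815). None of either list lay at or below background. Whole muscle was measured, so a shift in the share of fast fibres, fibres of a neighbouring muscle and a change within fibres cannot be told apart, nor can fewer cells of a type and less RNA per cell.

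The rest of the Z-disc did not move one way. Of 36 other Z-disc genes measured (37 listed), 1 rose and 4 fell in suspended soleus, with a median difference of -0.20 and 14 above 0. Fhl3, a LIM protein gene, rose by 1.39 ± 0.21 (adjusted p = 0.0234). Pdlim1, whose PDZ and LIM protein binds α-actinin, had a difference of -1.41 ± 0.19 (adjusted p = 0.0172), and Flnc, the filamin gene of muscle, which calsarcins and myotilin bind, one of -0.73 ± 0.13 (adjusted p = 0.0452). The small heat shock gene Hspb7 (-1.02) and the stretch-responsive gene Ankrd2 (-1.53) were the other falls. Bag3, a co-chaperone that serves filamin turnover, differed by -0.61 (adjusted p = 0.0667), Csrp3 by -1.71 (adjusted p = 0.0728) and Ankrd23 by -0.98 (adjusted p = 0.077), and these did not pass.

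Partners and regulators of the 10 genes were read against the 1.05% of all genes that passed. Calsarcins bind calcineurin, and of 8 genes of calcineurin, NFAT factors and Rcan1, 2 rose and none fell, with a median of 0.21. Nfatc2 had signals of 7.18 and 7.10 in suspended soleus, against 5.96 and 5.97 in control soleus, a difference of 1.17 ± 0.13 (adjusted p = 0.00674). Ppp3ca, a catalytic subunit of calcineurin, rose by 0.83 ± 0.15 (adjusted p = 0.0413), while Rcan1, a calcineurin target that feeds back on it, had a difference of -1.30 ± 0.38 that did not pass (adjusted p = 0.172). Of 10 measured SRF and TEAD regulators of actin genes (12 entries that include older symbols of the same genes), 1 fell. This was Abra, an actin-binding activator of serum response factor, with signals of 7.40 and 7.89 in suspended soleus, against 8.99 and 9.82 in control soleus (-1.76 ± 0.26, adjusted p = 0.0234). Srf itself differed by -0.25 ± 0.15 (adjusted p = 0.561). Tead4 (0.71, adjusted p = 0.0913) and Mrtfb (0.76, adjusted p = 0.1875) were higher without overlap. Vgll2 (-1.02, adjusted p = 0.142) was lower without overlap, and none of them passed. In suspension minus control 6 of these 10 regulators lay above 0 (median 0.05).

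In a list of 8 M-band and myosin-binding protein genes, 2 rose, and the list had a median of 0.36. The 2 were myomesin genes of the M-band, where thick filaments are crosslinked: Myom2 (1.27 ± 0.16, adjusted p = 0.0122) and Myom1 (0.86 ± 0.14, adjusted p = 0.0286). None of 12 genes of thin filament length and actin turnover passed, with a median of -0.03. Tmod1, which caps the pointed end of actin, was at 0.65 (adjusted p = 0.114), and Wdr1, a cofactor of actin disassembly, at -0.61 (adjusted p = 0.0883). None of 3 measured non-sarcomeric actin genes (4 listed) passed, with Actb at 0.04 and the smooth muscle actin gene Acta2 at -0.52 (adjusted p = 0.245). Of 6 vascular smooth muscle markers, which include Acta2, none passed, and their mean was 5.81 and 5.60 in suspended soleus, against 5.79 and 6.06 in control soleus.

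**Figure D5:**
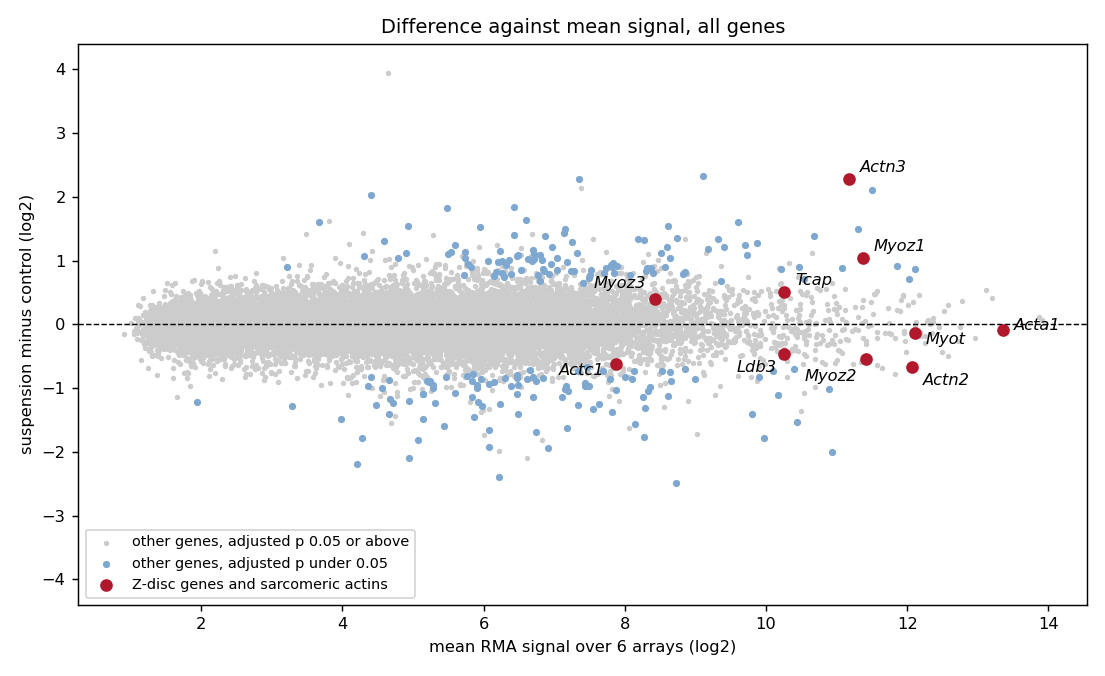
Difference of suspension minus control (log2, vertical axis) against mean signal over 6 arrays (log2, horizontal axis) for 19938 genes, with the 10 genes named in red and other genes past adjusted p under 0.05 in blue. Actn3 at 2.28 lies among the highest differences of all genes, while Acta1 and Myot lie close to 0.

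Suspension with electroacupuncture was compared with suspension alone to ask what the treatment does in unloaded muscle. None of the 10 genes passed in limma, as none of 19938 genes did (0%). At an unadjusted p under 0.05 there was 1 of the 10 genes, and 612 of all genes (3.07%). The 1 gene was Actc1, with signals of 8.38 and 8.17 in the electroacupuncture group, against 7.42 and 7.32 in suspension alone. Both treated arrays were above both arrays of suspension alone by several times the gap between duplicates. The difference was 0.90 ± 0.15, or 1.87-fold (95% interval 0.57 to 1.23 log2, unadjusted p = 1.66e-04, adjusted p = 0.367), and it ranked 9th by p among all genes. It was between 0.80 and 1.01 when any 1 array was left out, and its lowest adjusted p in any of 17 alternative settings was 0.11.

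For the other 9 genes the 95% intervals of the effect of electroacupuncture lay between -0.70 and 0.56 and included 0. Actn3 had signals of 11.82 and 11.80 in the electroacupuncture group, against 11.96 and 12.02 in suspension alone (-0.18 ± 0.23), and Myoz1 had 11.59 and 11.75 in the electroacupuncture group, against 11.78 and 11.70 in suspension alone (-0.07 ± 0.14). Changes smaller than these intervals could not be detected, and the values do not show that the groups were equal. The groups did not overlap for 6 genes, against 32.6% of all genes. In the treated group 5 were higher, namely Actc1, Myoz3, Ldb3, Myot and Tcap, against 15.4% of all genes, and 1 was lower, Actn3, against 17.1%. Apart from Actc1, these differences were from -0.18 to 0.18. The median difference was 0.12 for the 10 genes, 8 of which were above 0, and -0.01 for all genes, 48.4% of which were above 0.

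Markers of embryonic or regenerating fibres and of heart, which also make Actc1, were set beside it. The embryonic myosin gene Myh3 had signals of 5.42 and 5.65 in the electroacupuncture group, against 4.38 and 4.50 in suspension alone (1.10 ± 0.16, adjusted p = 0.269). None of the 4 markers of such fibres passed, and Myod1 (-0.29) and Myh8 (-0.12) had differences below 0. Myog, a factor of muscle differentiation, was at 5.76 and 4.53 in the electroacupuncture group, against 4.69 and 4.38 in suspension alone, so it was high on 1 treated array only. The list mean was 5.74 and 5.41 in the electroacupuncture group, against 5.27 and 5.23 in suspension alone. None of 5 heart markers passed, and Nppa, Tnni3 and Myl7 had signals between 3.18 and 3.79 on all 6 arrays, near the background of 3.50. Only Myl7 of the 5 heart markers had a mean signal, 3.49, at or below background. Tnnt2, a troponin T gene also made in embryonic skeletal muscle, had signals of 7.20 and 6.70 in the electroacupuncture group, against 6.54 and 6.40 in suspension alone, higher without overlap (0.48 ± 0.18, unadjusted p = 0.0238, adjusted p = 1.00). Myh6 lay between 5.58 and 6.26 on all arrays, and its groups overlapped (0.19 ± 0.21).

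None of the endothelial, tendon, adipocyte or macrophage markers passed between these groups. All 5 endothelial markers were lower without overlap in the electroacupuncture group, against 17.1% of all genes, with a median of -0.37 and means of 7.26 and 7.17, against 7.65 and 7.57 in suspension alone. Of 6 tendon markers 5 were above 0, and their mean was 6.71 and 6.93 in the electroacupuncture group, against 6.36 and 6.10 in suspension alone. Among them Chad, a matrix protein gene of cartilage and tendon, had signals of 9.20 and 9.75 in the electroacupuncture group, against 6.87 and 7.36 in suspension alone (2.36 ± 0.23, adjusted p = 0.0601). All 5 measured adipocyte markers were higher without overlap in the electroacupuncture group, against 15.4% of all genes, with a median of 0.65. The 5 measured macrophage markers were all above 0, with a median of 0.30. The part of all these cells in the values of Actc1 was not tested. Of 36 other Z-disc genes none passed, with a median of 0.04. None of the calcineurin and NFAT, M-band and myosin-binding protein, thin filament, SRF and TEAD or non-sarcomeric actin genes passed.

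Suspension with electroacupuncture was also compared with control, which shares its control arrays with the first comparison. Again Actn3 and Myoz1 rose, and the other 8 genes did not pass. Over all genes 1.03% passed, 0.446% as higher and 0.587% as lower. Actn3 averaged 11.81 ± 0.02 in the electroacupuncture group and 9.72 ± 0.58 in control (SD, n = 2 each), a 4.28-fold difference (2.10 ± 0.23 log2, adjusted p = 0.00871). Myoz1 averaged 11.67 ± 0.11 in the electroacupuncture group and 10.70 ± 0.15 in control (0.97 ± 0.14, adjusted p = 0.0194). Neither passed without 1 of the electroacupuncture arrays, where the adjusted p was 0.0885 and 0.0865 for Actn3 and 0.153 and 0.21 for Myoz1 without array 1 and array 2. Without either suspension array, which enter only through the estimate of spread, Myoz1 missed the threshold (adjusted p = 0.0549 and 0.0567).

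Groups did not overlap for 8 of the 10 genes in that comparison, against 41.8% of all genes. They were higher for 5, against 21.8% of all genes, and lower for 3, against 20%. Tcap (0.66 ± 0.16, adjusted p = 0.115) and Myoz3 (0.57 ± 0.17, adjusted p = 0.181) were higher, and Actn2 (-0.58 ± 0.16, adjusted p = 0.149), Myoz2 (-0.49 ± 0.17, adjusted p = 0.254) and Ldb3 (-0.31 ± 0.14, adjusted p = 0.413) were lower. Without control array 1 Myoz2 (-0.72, adjusted p = 0.0467) and Myoz3 (0.81, adjusted p = 0.0427) passed, and without control array 2 Tcap did (0.89, adjusted p = 0.0228). For Actc1 the order of the group means was electroacupuncture at 8.27, control at 7.99 and suspension alone at 7.37. The difference between the first 2 did not pass (0.28 ± 0.15, 95% interval -0.05 to 0.61, adjusted p = 0.484). The lowest treated array, at 8.17, lay above the highest control array, at 8.12. For Acta1 the interval ran from -0.41 to 0.28, and for Myot from -0.29 to 0.33.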

How the data were processed

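The authors deposited 1 log2 signal for each of 35556 transcript clusters on each of 6 arrays. They came from RMA, which subtracts background, equalizes array distributions and sums up probes, run in Affymetrix Expression Console, per the submitters' processing notes, with the version and genome build not given in the sources used here. They were used as they stood. Clusters were named from GEO's platform annotation, updated by Entrez ID: 21789 had 1 symbol, 1621 several and 12146 none listed, and only the first were used. For 999 genes with several clusters the one of highest mean was used. This gave 19938 genes, and none was dropped for low signal.

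All 6 arrays were fitted with limma 3.58.1 in R 4.3.3 (1 mean per group, prior variance following the mean signal, 3 residual degrees of freedom), and p-values were adjusted over all genes after Benjamini and Hochberg, and 0.05 was the threshold. The procedure was run on simulated data, with the spread shuffled among genes and equal in all groups. These settings differ from the data, so the run does not measure how reliable the calls are. The 10 genes, the gene lists and the tests were chosen with earlier results of these data known. Of each list all genes past the threshold and up to 3 others of smallest p in suspension minus control could be named, as were, for each of the 10 genes past the threshold, the 3 genes of most like profile. Srf and the cell type markers named were picked after their values were seen. Lists are described by counts and medians. Lists of tendon, endothelium, macrophage, erythroid and Schwann cell markers were also measured: in suspension minus control 3 of 6 tendon markers fell, and none of the 5, 5, 1 and 1 measured genes of the other lists passed. In the electroacupuncture group minus control 3 tendon markers and the endothelial gene Kdr (-1.28, adjusted p = 0.0135) fell. Alternatives were other variance priors, a filter on signal, other normalizations, other handling of clusters, a fit of the compared groups alone, array weights, a block for replicate number and leaving out each array. The number of arrays limits the precision.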

Additional observations from a re-analysis of the deposited data

How the results depend on the processing

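The 30 differences of the 10 genes were recomputed under 17 alternatives, which gave 510 values: 471 kept direction and side of the threshold, 16 lost and 12 gained a call, and 11 turned in direction. For suspension minus control, 2 genes passed as reported, 4 after cyclic loess and 0 with every transcript cluster tested by itself, where Actn3 and Myoz1 kept their differences with adjusted p of 0.116 and 0.12 in a larger family of tests. For the electroacupuncture group minus control, 2 passed as reported, 4 with quantile normalization again, 0 with every cluster by itself and 1 with only the compared groups fitted. Leaving out each array gave 0 to 4 genes in both. For the electroacupuncture group minus suspension it was 0 in all 17. Over all genes the counts ran from 1 to 301 (209 as reported), from 1 to 312 (206) and from 0 to 4 (0). Turned directions were all of small values. Acta1 in the electroacupuncture group minus suspension was -0.0048 after cyclic loess. With each array left out, its range was -0.062 to 0.10 there, -0.20 to 0.039 in suspension minus control and -0.18 to 0.058 in the electroacupuncture group minus control. In the electroacupuncture group minus suspension the ranges were -0.015 to 0.18 for Actn2, -0.15 to 0.0028 for Myoz1 and -0.027 to 0.14 for Myoz2, and Myot ran from -0.074 to 0.12 in the electroacupuncture group minus control. With replicate number as a block, 2, 0 and 2 genes passed in suspension minus control, electroacupuncture minus suspension and electroacupuncture minus control, and 102, 0 and 127 of all genes. Deviations of same-numbered arrays correlated at -0.02 between electroacupuncture and suspension, 0.02 between electroacupuncture and control and -0.16 between suspension and control. These values rest on 1 gap per group and cannot tell whether the numbers pair the arrays. The cause of the other changes was not tested.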
